A study of Homo sapiens with 14 samples.

Results

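In Nalm-6 cells with mutant SF3B1, 50574 genomic regions gave DNA:RNA hybrid peaks in both untreated libraries and in no RNH1-treated or wild-type library. The peaks of 8 DRIP-seq lists were merged on chromosomes 1 to 22 and X, which gave 478732 regions, and these 50574 are 10.6% of them. They were selected on the presence or absence of a called peak in all 8 libraries: a peak in both untreated SF3B1-MT lists, and none in the 4 RNH1 lists or the untreated SF3B1-WT lists. Their absence from the other 6 lists is therefore the rule itself and not a finding, and here "RNH1 sensitive" means only that no peak was called after RNH1.

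Nalm-6 is a human B cell leukemia line, and the study compared isogenic derivatives of it carrying SF3B1 K700E (MT) or the unaltered SF3B1 K700K (WT). DNA from non-cross-linked cells was cut with HindIII, EcoRI, BsrGI, XbaI and SspI, left untreated (UNT) or digested with an RNase H (RNH1; RNaseH1 in the labels, RNase H in the protocol), and pulled down with the S9.6 antibody, with 2 libraries in each of the 4 groups. Each genotype is 1 line, so genotype and line cannot be told apart. The labels do not say whether the 2 libraries of a group came from separate cultures, so the spread between them may be technical. Because the rule used every library, no library remained for an independent test, and the values below are descriptions beside the same values for all merged regions.

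In an R-loop an RNA pairs with its template DNA strand and displaces the other strand. They form mainly where RNA is transcribed, are favored by GC-rich and GC-skewed sequence near gene starts and ends, and are removed by RNase H enzymes, which cut the RNA of a hybrid, and by helicases. SF3B1 is the core subunit of the U2 snRNP that recognizes the branch point in splicing, and K700E is its recurrent substitution in chronic lymphocytic leukemia and myelodysplastic syndromes.

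In the labels below, promoter means within 3 kb of any transcript start, which can lie inside a gene. The regions with the highest enrichment are shown by the bases around their summits, the points of highest coverage, to show what was pulled down there and where the restriction sites lie. They are read from the plus strand of GRCh38, and capitals mark the sites of HindIII (AAGCTT), EcoRI (GAATTC), BsrGI (TGTACA), XbaI (TCTAGA) and SspI (AATATT).
RGS6 promoter, chr14:72471592-72471692: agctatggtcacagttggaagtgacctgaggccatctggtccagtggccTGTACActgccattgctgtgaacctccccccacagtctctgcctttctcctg
intergenic, chromosome 10, chr10:61497357-61497457: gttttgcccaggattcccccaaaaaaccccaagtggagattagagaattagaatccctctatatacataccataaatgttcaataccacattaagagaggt
ENSG00000288922 promoter, chr10:5495854-5495954: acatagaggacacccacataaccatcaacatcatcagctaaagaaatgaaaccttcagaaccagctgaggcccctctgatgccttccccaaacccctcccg
C4orf51 and ZNF827 introns, chr4:145767383-145767483: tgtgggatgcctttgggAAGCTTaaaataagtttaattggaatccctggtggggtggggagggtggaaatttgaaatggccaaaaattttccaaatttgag
intergenic, chromosome 10, chr10:13430994-13431094: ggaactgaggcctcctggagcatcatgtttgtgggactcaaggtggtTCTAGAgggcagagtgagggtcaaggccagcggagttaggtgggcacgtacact
LINC01622 promoter, chr6:1101141-1101241: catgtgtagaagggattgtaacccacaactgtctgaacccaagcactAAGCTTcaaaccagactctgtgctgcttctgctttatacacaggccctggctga
REPS1 promoter, chr6:138906571-138906671: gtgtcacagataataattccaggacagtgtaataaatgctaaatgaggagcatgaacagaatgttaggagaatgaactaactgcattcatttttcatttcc
STXBP5-AS1 intron, chr6:146979283-146979383: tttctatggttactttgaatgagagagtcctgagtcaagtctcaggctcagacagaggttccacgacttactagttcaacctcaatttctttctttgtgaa
LRP1B intron, chr2:140240065-140240165: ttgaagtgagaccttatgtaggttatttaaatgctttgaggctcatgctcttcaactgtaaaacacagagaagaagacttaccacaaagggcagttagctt

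Of these 9 stretches 4 contain a restriction site. In the C4orf51 and ZNF827 member the peak begins inside the HindIII site shown, in the second chromosome 10 intergenic member it ends inside the XbaI site, and in the RGS6 and LINC01622 members the site lies at the summit. Runs of G on one strand can fold into G-quadruplexes on the displaced strand of an R-loop, and the members with the most matches outside UTRs were an intronic region of PTPRN2 and a promoter region of HOXC8 that overlaps HOXC6. Capitals below mark matches to 4 runs of 3 or more G, or of C for the minus strand, separated by 1 to 7 bases.
PTPRN2 intron, chr7:157692090-157692190: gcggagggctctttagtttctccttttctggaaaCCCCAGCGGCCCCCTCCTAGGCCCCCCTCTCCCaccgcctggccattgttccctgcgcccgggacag
HOXC8 promoter, chr12:54004961-54005061: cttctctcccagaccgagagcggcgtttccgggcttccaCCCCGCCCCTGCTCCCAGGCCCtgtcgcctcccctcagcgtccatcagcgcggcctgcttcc

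The PTPRN2 member, at chr7:157691998-157694108, held 9 match positions, had a GC content of 70.6%, and was enriched 4.19-fold and 4.86-fold in the 2 untreated MT libraries. The HOXC8 member, at chr12:54004884-54007720, was the longest of all members at 2837 bp and held 5 match positions. Such sequence was uncommon among the members. A match lay in the 301 bases centered on the summit in 2.16% of members, in 2.11% of all merged regions, in 2.004% of the MT-only regions that kept their peaks after RNH1, and in 3.11% of windows of the same length spaced evenly over the genome.

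Membership narrowed in steps. A peak of both untreated MT libraries was present in 201981 merged regions, of which the members are 25.0%. No untreated WT peak was present in 132362 of them. Of those, 58340 had a peak in both MT RNH1 libraries, 22882 had one in 1 of them and 51140 in neither, and a WT RNH1 peak removed 566 more. Requiring also no WT RNH1 peak left 49042 of the 58340 as MT-only regions resistant to RNH1, about as many as the sensitive ones. The mirror-image rule, a peak in both untreated WT lists and in no other list, found 21430 regions, or 4.48% of all merged regions.

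The lists differed in length and in depth, and both move with this contrast. The untreated MT lists held 253744 and 295970 peaks on these chromosomes, the untreated WT lists 123582 and 130928, the MT RNH1 lists 201117 and 198158, and the WT RNH1 lists 34857 and 77391. Read totals are not in the peak lists, but the fold enrichment and p-value of each peak together give its summit coverage and background. These are given as fragment counts, although they may be counts of single reads. The lowest background in a list is that library's genome-wide level. It was 3.51 and 4.35 fragments in the untreated MT libraries, 2.99 and 3.13 in the untreated WT libraries, 2.76 and 2.55 in MT RNH1, and 1.62 and 2.17 in WT RNH1. The untreated MT libraries were thus the deepest of the 8. At that background the lowest fold enrichment called was 3.001 and 2.909 in the untreated WT libraries, and 85.0% and 89.4% of the members were at or above it in both untreated MT libraries. In MT RNH1 the lowest was 2.93 and 2.81, which 88.9% and 92.8% of members reached, and in WT RNH1 replicate 1 it was 3.42, which 64.2% reached. The part of depth in the membership of a region was not tested.

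The members were short and moderately enriched. Their median width was 493 bp, and together they covered 28.9 Mb of the 289 Mb in all merged regions. Fold enrichment had a median of 4.14 in MT UNT replicate 1, with a range of 2.17 to 16.4, and of 4.11 in replicate 2, with a range of 1.93 to 17.8. The median summit coverage was 20 and 24 fragments over a background of 3.84 and 4.71. Of all members 98.6% consisted of 1 peak from each library, and the remaining 687 of 3 or more. The MT-only regions resistant to RNH1 had higher medians in the same libraries, 4.84 and 5.04, and were wider, with a median of 667 bp.

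**Figure D1:**
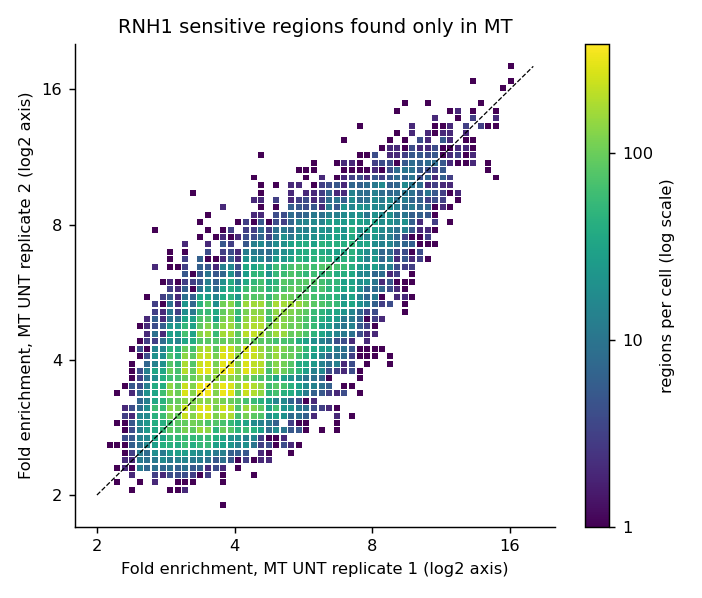
Fold enrichment of the 50574 MT-only RNH1 sensitive regions in MT UNT replicate 1 (x axis) and replicate 2 (y axis), both on log2 axes, with color giving the number of regions per cell on a log scale and a dashed line at equality. Most regions lie near the medians of 4.14 and 4.11, and few pass 8-fold in both libraries.

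The 2 untreated MT libraries gave similar values for the members. The rule partly sets this, as it requires a called peak of both in the same merged region, and no other set was compared. Over the 50574 members the log2 fold enrichments had a Pearson r of 0.72 and the fold enrichments a Spearman rho of 0.66, given without a p because regions are not replicates and share libraries. The 2 values lay within 1.5-fold of each other in 94.6% of members. The summits lay a median of 70 bp apart and within 200 bp in 79.7%. Enrichment of at least 4-fold in both libraries was found in 19787 members (39.1%), and of at least 8-fold in both in 809 (1.60%). In the plot of the 2 libraries the cloud follows the diagonal, with its densest part between 3-fold and 5-fold.

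At the edge of the rule, the 3 members with the weakest peaks had a lower −log10 q of 2.02. They lay in LRRC4C at chr11:40934841-40935210, in MMP26 at chr11:4772724-4773102 and in PRKCA at chr17:66330805-66332002, with fold enrichments from 2.39 to 4.23. Just outside were regions that 1 weak peak of another list kept out, such as EPS8 at chr12:15781934-15782600, where MT RNH1 replicate 2 had a peak of 2.60-fold against 3.10-fold and 3.45-fold in the untreated MT libraries. In all, 29257 regions with both MT peaks were kept out by 1 peak of 1 other list. That peak was from MT RNH1 replicate 1 in 11085, replicate 2 in 10928, WT UNT replicate 1 in 3260 and replicate 2 in 3461, and its median enrichment in these 4 lists was between 3.64-fold and 3.99-fold.

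The most enriched member, at chr14:72471329-72472067, lay within 3 kb of a transcript start of RGS6, a regulator of G protein signaling, and was 739 bp wide. It reached 16.4-fold in MT UNT replicate 1 (78 fragments over a background of 3.83) and 17.8-fold in replicate 2 (102 over 4.80). An intergenic member at chr10:61497308-61497661 followed with 16.3-fold and 16.9-fold, and one near the lncRNA gene ENSG00000288922 at chr10:5495735-5496097 with 15.5-fold and 16.4-fold. The member in introns of C4orf51 and ZNF827, a zinc finger gene, at chr4:145767401-145767695, was only 295 bp wide and reached 13.4-fold and 16.9-fold.

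The next 11 regions by mean enrichment ranged from 13.2-fold to 15.2-fold in either library. They lay in introns of STXBP5-AS1, LRP1B (a giant LDL receptor family protein), PTGFR (the prostaglandin F receptor), EFR3A, LINC01090 and ENSG00000251574, near transcript starts of LINC01622, REPS1 and CFAP44, and between genes on chromosomes 10 and 12. GC content in the highest 15 ranged from 36.3% to 50.3%. None held a G-quadruplex match, and 12 of the 15 had an edge at a restriction site.

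Members that lay near a start of any transcript of a protein-coding gene reached similar levels. Below RGS6, REPS1 and CFAP44 came SLC25A37, the mitochondrial iron importer mitoferrin, at 13.0-fold and 13.2-fold, and SATB1, a chromatin organizer of lymphocytes, at chr3:18351945-18352384 with 13.1-fold and 12.1-fold, 634 bp from a start. KCNT2, a potassium channel, ATPAF1, an ATP synthase assembly factor, ANXA4, an annexin, ENPP6, a choline phosphodiesterase, and NDFIP2, an adaptor of NEDD4 ubiquitin ligases, followed with mean enrichments between 11.1-fold and 11.6-fold. The ENPP6 member was centered 6 bp from a transcript start and the NDFIP2 member 232 bp from one, while the RGS6 member was 2289 bp away. Such starts can lie inside a gene. From the start of the gene itself the KCNT2 member lay 182249 bp away, REPS1 81703, NDFIP2 53503, CFAP44 43329, SLC25A37 10957 and ENPP6 3363 bp. For RGS6, SATB1, ATPAF1 and ANXA4 the nearest protein-coding gene start was that of another gene.

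By genomic class, with each region assigned in the order promoter (within 3 kb of any transcript start), UTR, exon, intron, downstream and intergenic, 22224 members (43.9%) were intronic, 16904 (33.4%) intergenic, 8921 (17.6%) in promoters, 1460 (2.89%) in exons and 890 (1.76%) in 3′ UTRs. Among all merged regions the shares were 45.1% intronic, 35.5% intergenic, 15.6% promoter, 2.17% exonic and 1.30% 3′ UTR. Promoter, exon and 3′ UTR shares were higher among the members, and those of the RNH1 resistant MT-only regions were lower, at 13.7%, 2.09% and 1.05%. In evenly spaced genome windows the promoter share was 18.9%, above that of the members. Members inside a transcript made up 63.5%, against 61.6% of all merged regions and 61.3% of genome windows.

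Near protein-coding gene starts the members were few. The midpoint lay within 1 kb of a start in 444 members (0.878%), against 0.637% of all merged regions, 0.459% of the resistant regions, 0.425% of the WT-only regions and 1.26% of genome windows. Around gene ends, within 3 kb, the shares were 3.27% of members, 2.59% of all merged regions, 2.14% of resistant regions and 3.71% of genome windows. In the 221 members up to 1 kb downstream of a start the median GC content was 50.1%, and 62.4% had more G than C on the coding strand, beside 62.2% of all merged regions there. In the 223 members up to 1 kb upstream, 39.9% had more G than C on that strand, beside 48.1% of all merged regions.

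The members were moderately rich in GC, and the WT-only regions poor. The median was 42.4% in members, 40.2% in all merged regions, 40.4% in the RNH1 resistant regions, 34.1% in the WT-only regions and 40% in genome windows. The share of merged regions that were members was 0.887% below 30% GC, 4.12% from 30% to 35%, 13.7% from 40% to 45% and 15.4% from 45% to 50%, and fell to 8.84% at 60% and above. Among regions with a peak in both untreated MT libraries, the members' share was 17.2% below 30% GC and rose to 55.5% at 60% and above. The WT-only share ran the other way, from 24.4% below 30% GC to 1.51% at 60% and above. Within the members, those with a mean enrichment under 3-fold had a median GC content of 43.5% and those of 8-fold and over 39.8%.

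**Figure D2:**
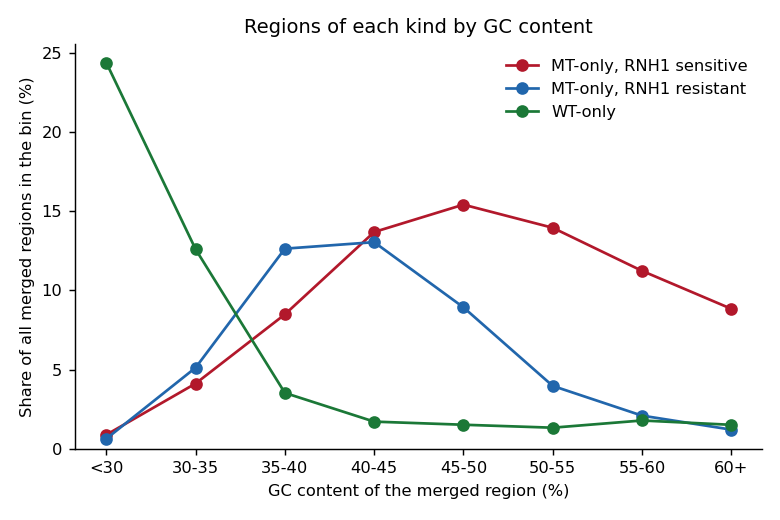
Share of all merged regions (y axis, %) that were MT-only and RNH1 sensitive, MT-only and RNH1 resistant, or WT-only, by GC content of the region (x axis, %). The sensitive regions are highest at 45% to 50% GC (15.4%), the WT-only regions below 30% GC (24.4%).

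The libraries themselves differed in GC content, and this moves with the contrast. The merged regions holding peaks of the untreated MT libraries had median GC contents of 41.1% and 40.8%, those of MT RNH1 40.1% and 40%, those of untreated WT 37.5% and 37.9%, and those of WT RNH1 38.1% and 39.1%. Every MT library was above every WT library. The part of a difference in library base composition in the members' GC content was not tested.

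The borders of the regions coincided with the restriction digest. No cut site of the 5 enzymes lay inside 95.1% of the members, 94.1% of all merged regions, 91.7% of the resistant regions, 96.1% of the WT-only regions and 41.0% of genome windows of 500 bp, so this is shared by all sets of peaks. At least 1 edge coincided to within 1 bp with the end of a restriction fragment in 30762 members (60.8%), 57.3% of all merged regions, 63.6% of the resistant regions, 64.6% of the WT-only regions and 1.16% of genome windows. From cut to cut, 978 members (1.93%) spanned a fragment. HindIII gave 27.0% of the edges that lay at cut sites, SspI 23.8%, BsrGI 21.0%, EcoRI 14.8% and XbaI 13.5%. SspI, whose site holds only A and T, gave 29.8% of such edges in all merged regions. The summit itself fell inside a cut site in 4968 members (9.82%), in 6.93% of the resistant regions and in 7.74% of all merged regions.

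**Figure D3:**
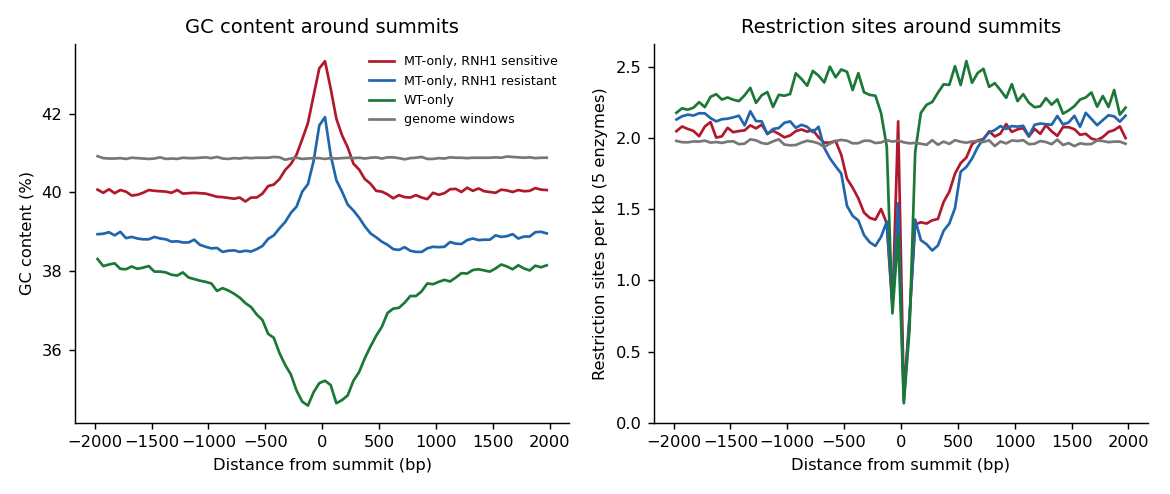
GC content (left, %) and sites of the 5 restriction enzymes per kb (right), in bins of 50 bp, against distance from the summit (bp) for MT-only RNH1 sensitive, MT-only RNH1 resistant and WT-only regions and for genome windows around their centers. Mean GC content within 100 bp of the summit is 42.9% in the sensitive regions and 35.1% in the WT-only regions. Restriction sites average fewer within 100 bp of the summit than in the flanks in each set of regions, although the bin just left of the summit reaches 2.12 per kb in the sensitive regions, against 1.54 in the resistant and 1.32 in the WT-only regions.

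Around the summits of members GC content averaged 42.9% within 100 bp and 40.03% in the flanks beyond 1500 bp, a rise of 2.87 percentage points. The rise was 2.43 points in the resistant regions, while the WT-only regions fell by 3.01 points. Runs of 10 or more A or T lay in the 301 bases at the summit in 6.47% of members, 7.43% of all merged regions and 9.50% of genome windows. Runs of 20 or more purines or pyrimidines lay there in 4.23% of members and 5.77% of all merged regions.

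The members were spread over all chromosomes. Their share of merged regions ran from 8.41% on X to 12.2% on chromosome 16, with 9.50% on chromosome 19, the second lowest, and 11.4% on chromosomes 20 and 22. Per Mb of sequence, members numbered from 7.49 on X and 9.10 on chromosome 19 to 19.98 on chromosome 3 and 20.05 on chromosome 8. All merged regions differed the same way, with 89.1 per Mb on X, 95.8 on chromosome 19, 187 on chromosome 3 and 181 on chromosome 8.

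**Figure D4:**
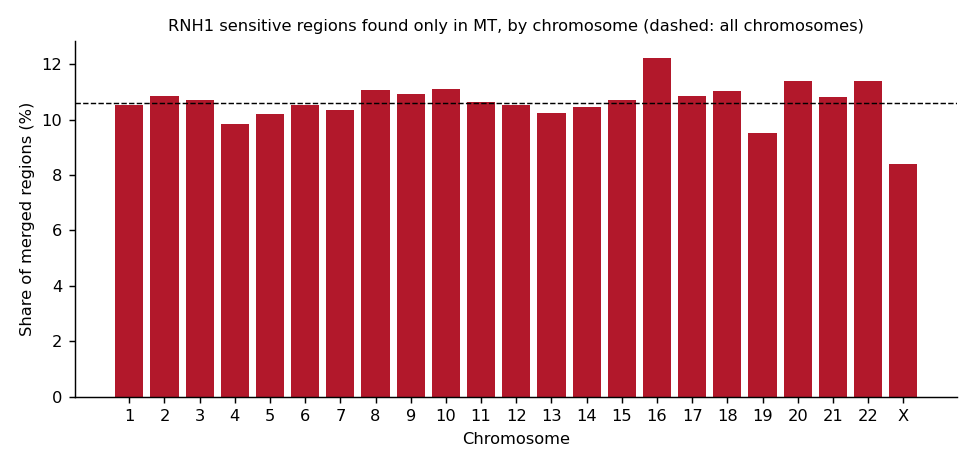
Share of merged regions on each chromosome (x axis) that were MT-only and RNH1 sensitive (y axis, %, from 0), with the share over all chromosomes, 10.6%, as a dashed line. Chromosome 16 is highest at 12.2% and X lowest at 8.41%.

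Alpha-satellite repeats are those on which centromeres form. In wide blocks of the assembly drawn around sequence resembling such repeats, 110 of 1256 merged regions were members, or 8.76%. The blocks can also hold other sequence between stretches of repeats, and every region in them was counted. The share is therefore not one for the repeats or centromeres themselves, which was not measured. The 110 members lay on 16 chromosomes, with 17 on chromosome 16, 12 on chromosome 7 and 11 on chromosome 8. No merged region lay in these blocks on chromosomes 4, 13 and 14, and reads from near-identical repeat copies cannot be placed with certainty. The highest members in the blocks were at chr16:35771257-35771686 with 8.20-fold and 11.6-fold, and at chr9:65448266-65448671 with 8.64-fold and 10.8-fold. Whether either lies in repeat sequence itself was not examined. The share in these blocks was below the 10.6% of all merged regions.

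Gene by gene, members fell inside 13100 of 62062 annotated genes, and inside 7875 of 19970 protein-coding genes (39.4%), of which 3494 held a single member. The 13100 genes became 7678 when 4-fold enrichment was required in both libraries and 5633 when the untreated MT lists were cut to the length of the WT lists. Long genes held the most. A member lay in 5.57% of protein-coding genes under 10 kb, in 28.0% of those from 10 to 50 kb, in 97.5% of those from 200 kb to 1 Mb and in all 71 of 1 Mb and over. The density changed less, from 1.23 members per 100 kb in the shortest class to 2.01 from 200 kb to 1 Mb. The members' share of merged regions was between 10.7% and 13.2% in every length class.

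**Figure D5:**
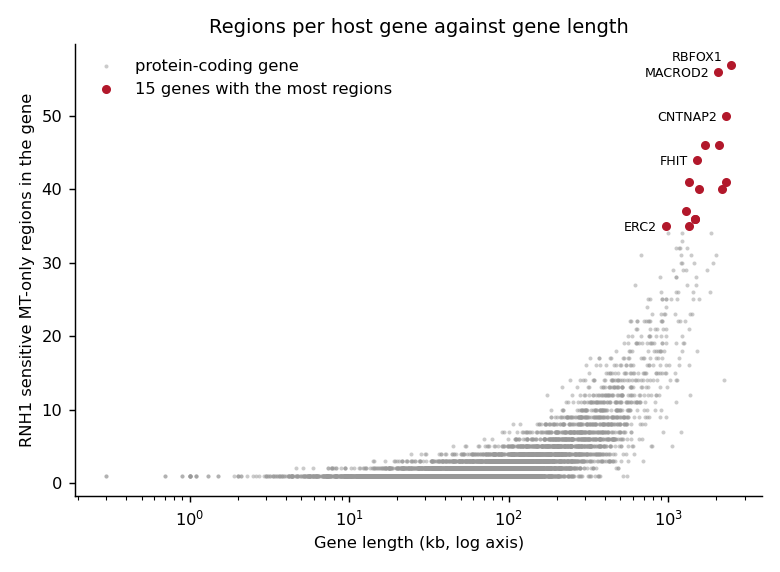
Number of MT-only RNH1 sensitive regions (y axis) in each protein-coding gene with at least 1 of them (points), against gene length in kb on a log axis, with the 15 genes holding the most regions in red. RBFOX1 holds 57 and MACROD2 56, and the shortest of the 15 is ERC2 at 961 kb.

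The 15 genes with the most members were RBFOX1, a neuronal splicing regulator, with 57 in 2474 kb, MACROD2, an ADP-ribose hydrolase, with 56, CNTNAP2, a neurexin-related adhesion protein, with 50, NRXN3, a neurexin, and CSMD1, a complement regulator, with 46 each, and FHIT, a tumor suppressor gene within a common fragile site, with 44. LSAMP and PTPRD held 41 each, DAB1 and DLG2 40 each, TENM2 37, CTNNA2 and GPC5 36 each, and ERC2 and LRRC4C 35 each. Of the 15, 7 are among the fragile-site genes described below. ERC2, a presynaptic scaffold, had the largest share, with 35 of its 167 merged regions (21.0%), and DLG2 the smallest, with 40 of 469 (8.53%). RBFOX1 held 27 RNH1 resistant and 5 WT-only regions beside its 57 members, while DLG2 held 62 resistant and 26 WT-only regions beside its 40. These counts and their order depended on the lists used. With the untreated MT lists cut to the length of the WT lists, RBFOX1 held 18, MACROD2 7 and PTPRD 19, and with no RNH1 list used CNTNAP2 held the most of the 15, at 139.

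In these genes the members were mostly intronic. In RBFOX1 53 of 57 were intronic, with a median mean enrichment of 4.13 and a highest member of 10.2-fold and 12.1-fold at chr16:7477995-7478381. In MACROD2 53 of 56 were intronic, with a median of 4.404 and a highest member of 9.57-fold and 10.4-fold at chr20:14445612-14445962. PTPRD held a member of 9.97-fold and 10.5-fold at chr9:9556684-9557279. Over the 15 genes the median mean enrichment ran from 3.87 in ERC2 to 4.52 in PTPRD.

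Among genes of at least 50 kb with at least 5 members, the densest were LINC03060 with 9.40 members per 100 kb, NAT1, an arylamine N-acetyltransferase, with 9.40, and C2orf73 with 9.31. SCRN1, OARD1, COL6A3, CNNM1, DHX57, GSAP and HNRNPA1L3 followed with 7.47 to 8.55 per 100 kb. COL6A3, which encodes a chain of collagen VI, had 7 members among 14 merged regions, the largest share of the 10 genes. Its 7 members ranged from 3.30-fold to 5.13-fold in MT UNT replicate 1 and from 2.99-fold to 4.595-fold in replicate 2, the highest being an intronic region at chr2:237391127-237392051. No resistant and no WT-only region lay in COL6A3, LINC03060 or C2orf73.

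Of 29 genes of B-lineage identity 17 held a member, 117 in all, which is 14.3% of their 816 merged regions beside 11.02% over all protein-coding genes. RUNX1, a hematopoietic transcription factor, held 33, EBF1, a factor that commits cells to the B lineage, 16, TCF4 13 and BACH2 9. In RUNX1 the mean enrichments ran from 2.74 to 7.88, with the highest member, 7.94-fold and 7.83-fold, in an intron at chr21:35716302-35716662. ETV6 held 7, FOXO1 6, and PAX5 and IKZF1 5 each. The list had a median gene length of 82.8 kb against 27.5 kb for all protein-coding genes, and 3 of its short genes, CD79A, CD79B and VPREB1, held no merged region at all. RAG1 and POU2AF1 held 22 and 21 merged regions and no member.

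All 25 genes of common fragile sites, which are long and late-replicating, held a member, 721 in all or 11.3% of their merged regions, with a median of 30 each. Their median length was 1380 kb. A member also lay in all 71 protein-coding genes of 1 Mb and over and in 97.5% of those from 200 kb to 1 Mb. The share of merged regions over all protein-coding genes was 11.02%, so both values are near those of long genes and of all genes. The counts ran from 57 in RBFOX1 down to 5 in THSD7A.

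Of 34 genes for R-loop resolution 17 held a member, 32 in all, or 10.4% of their merged regions. RNASEH2B, a subunit of RNase H2, held 6, ATAD5, which unloads PCNA, 4, and the RNA export factor THOC5 and the helicase BLM 3 each. RNASEH1 held none. Of 24 DNA damage checkpoint genes 11 held a member, led by TP53BP1 and the kinase ATR with 4 each, and their share of merged regions was 8.27%. Of 30 centromere and kinetochore genes 15 held one, led by the kinetochore motor CENPE with 4 and by CENPC and MAD1L1 with 3 each, at 11.6% of merged regions. Among all protein-coding genes 39.4% held a member, and members were 11.02% of their merged regions. Median gene length was 45.9 kb for R-loop resolution, 52.1 kb for the checkpoint and 37.7 kb for the centromere and kinetochore list. For all protein-coding genes it was 27.5 kb, and longer genes more often held a member.

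Of 20 genes of the SF3 complexes and their partners 6 held a member, 11 in all. That is 30% of these genes beside 39.4% of all protein-coding genes, and 15.7% of their 70 merged regions beside 11.02%. SF3B3, at chr16:70523791-70577670, held 3, all inside the gene and within 3 kb of some transcript start. The highest, 5.98-fold and 8.93-fold, was at chr16:70541631-70542053, and the others began at 70549822 and 70551381. SF3B1 itself held 1, in a 3′ UTR at chr2:197388858-197389445, with 4.202-fold and 4.846-fold. Of 13 genes that the study followed as targets of altered splicing 7 held a member, led by TRIM37 with 4, with 12.4% of merged regions beside the same 11.02%, and this list was chosen by the study. The study ran DRIP-qPCR at several loci, and 3 genes among them were examined here. ZNF90 and SLC9A5 held no member, but 3 of the 4 merged regions of ZNF90 were MT-only and RNH1 resistant. DDX10, a helicase of ribosome assembly, held 5 members among 57 merged regions (8.77%). In DDX10 they ranged from 3.16-fold to 6.20-fold in MT UNT replicate 1 and from 4.47-fold to 6.54-fold in replicate 2, with the highest at chr11:108891497-108891823. The lists are small, so 1 gene can decide a share.

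Members seldom followed each other along a chromosome. The next merged region was a member after 10.7% of members, after 10.6% of all regions, after 10.2% of RNH1 resistant regions and after 10.5% of WT-only regions. Of all members 79.7% had no member as a direct neighbor on either side. Runs of 5 members in a row, the longest found, occurred 4 times. They lay over NECAB1 on chromosome 8 in 23.3 kb, over ZNF471 and ZNF667-AS1 at chr19:56484510-56511164, over EYA3 at chr1:28086098-28127636, and over SRGAP3 at chr3:9156983-9206121. In the ZNF471 run mean enrichment ran from 3.6 to 9.51.

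In 2836 windows of 1 Mb with at least 30 merged regions, the number of members had a median of 18 and a highest value of 39, and 4 windows had none. The share of members was 5.61% at the 5th percentile, 10.5% at the median and 15.7% at the 95th percentile. The window with the most was chr11:92000001-93000000, which holds FAT3, a giant cadherin, with 39 members among 196 merged regions (19.9%). It was followed by windows on chromosome 9 with NFIB (38), chromosome 5 with EBF1 (38) and with ATG10 (37), and chromosome 3 with PDZRN3, chromosome 18 with SLC14A2 and SETBP1, chromosome 8 with PSD3 and NAT1, and chromosome 9 with BRINP1 (36 each). By share, chr15:59000001-60000000 with MYO1E held 21.3%, and windows with IGSF21 on chromosome 1 and SLC2A9 on chromosome 4 held 20.8% each. Windows with FOXO1 on chromosome 13 and one with no protein-coding gene on chromosome 10 had 20% each, and PIEZO2 on chromosome 18 had 19.9%. The share rose with the median GC content of the window's regions, from 8.48% in the lowest quintile to 11.9% in the fourth quintile and 11.7% in the highest.

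Distances to peaks of the other lists were taken for the members only. Without the same distances for other regions, they do not show whether such peaks lay closer to members than elsewhere. The nearest peak of any of the other 6 lists was a median of 2.64 kb away, within 1 kb of 10712 members (21.2%) and over 10 kb from 3691 (7.30%). The nearest MT RNH1 peak lay a median of 3.85 kb away, the nearest untreated WT peak 5.64 kb and the nearest WT RNH1 peak 11.2 kb, in the reverse order of the lengths of these lists. In 3868 members (7.65%) a peak of another list had its summit in the same restriction fragment.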

How the data were processed

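DRIP-seq peak lists of 8 Nalm-6 libraries were analysed, and 6 HEK293T samples were not used here. Per the methods, the authors aligned reads to GRCh38 with BWA-MEM, removed duplicates and called peaks with MACS2 under a paired-end setting. The methods also describe single-read sequencing, and the lists do not settle which was used. The submitters' processing notes also name STAR and StringTie, with no versions. The deposited narrowPeak lists give each peak's fold enrichment (a ratio of summit coverage to background) and its −log10 p-value and −log10 q-value, and hold no peak with a −log10 q below 2, a stricter limit than the q-value cutoff stated in the methods. They hold no reads, so the read-based differential test of the methods could not be run.

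Overlapping or adjoining peaks were merged (Python 3.11.15, numpy 2.4.6, pandas 2.3.3, scipy 1.17.1). Summit coverage and background were solved from the fold enrichment and p-value, with coverage as a whole number, and the solution met the deposited values within 0.001 for 100% of member peaks. The merging, the rule and this step were tested on simulated data. Classes and genes came from GENCODE v44 (251784 transcripts), and sequence features from GRCh38. Genome windows were 500 bp long, every 10000 bp. Bins of 10 kb were marked where the sequence matched itself 1 alpha-satellite repeat unit (171 bp) away at 45% or more of positions. Marked bins up to 1.5 Mb apart were joined, and blocks with at least 10 marked bins were kept. All regions between the first and last marked bin of a block were counted.

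Genes and regions named are the 15 genes with the most members, the 10 densest genes of at least 50 kb with at least 5 members, the 15 members and 10 protein-coding promoter members with the highest mean fold enrichment, 8 windows of 1 Mb by number and 8 by share of members (1 of them is not reported here), the longest runs, the regions nearest the threshold and 8 gene lists. SF3B1, RNASEH1, ETV6, FOXO1, PAX5 and IKZF1 were named beyond this rule after their counts were seen, as were genes with low counts or none. The members and lists were chosen with earlier results of these data known. No test was made.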

Additional observations from a re-analysis of the deposited data

How the results depend on the processing

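The number of members stayed within 1.5 times of 50574 in 12 of 17 alternatives. It was 19787 with a fold enrichment of at least 4 in both untreated MT libraries, 12564 when the untreated MT lists were cut by p-value to the mean length of the untreated WT lists (127255 peaks), and 133374 when no RNH1 list was used. Leaving out 1 library gave 50639 to 100212 members. The highest values were 100212 without MT UNT replicate 1 and 82086 without MT UNT replicate 2, since 1 peak was then enough, and leaving out any of the other 6 gave at most 61977. Requiring no peak of another list in the same restriction fragment, an alternative chosen after seeing the data, gave 46706. Over the 17 alternatives the median GC content of members ran from 41.2% to 42.9% and the share inside transcripts from 62.1% to 63.8%. The promoter share was 8.16% with promoters of 1 kb. Of the 15 highest members, at least 13 overlapped a member under each alternative. No paired analysis was possible because no result comes from a test. Depth limits the absence of a peak: in shallower libraries weak enrichment is not called, and a region absent from a list may hold hybrids below its threshold. The peak lists give no strand, so hybrids cannot be assigned to one of overlapping genes. Genes with a member ranged from 5633 to 19185.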
